A study of Homo sapiens with 6 samples.

Results

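The genes described here are the protein-coding genes of human chromosome 19 whose symbol starts with ZNF, taken from the deposited table by biotype, chromosome and name. There were 209 of them among the 29185 genes of the table, and the annotation column for transcription factor families listed 202 as C2H2 zinc finger proteins and gave no family for 7. The comparison was between 3 libraries of sh-KLF5 cells, in which KLF5 was silenced, and 3 libraries of the sh-NC control. Both come from SKOV3, a long-established line of human ovarian cancer cells. KLF5, a zinc finger transcription factor of the Krüppel-like family, was silenced in stable lines made with a pLKO vector carrying a short hairpin RNA and selected with puromycin. In the labels the control genotype reads WT, while the study calls this group sh-NC. Polyadenylated RNA was sequenced, and the study asked with these libraries which genes depend on KLF5. Nothing in the labels says that the libraries of a group came from separate cultures, so that the p-values below measure the spread between these libraries, which may be technical.

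C2H2 zinc finger proteins carry rows of short fingers, each folded around a zinc ion, that read DNA sequence. Many of them begin with a KRAB domain, which recruits the co-repressor TRIM28 and, through it, the histone methyltransferase SETDB1 and heterochromatin proteins. A large share of the human KRAB zinc finger genes lies in clusters on chromosome 19 that arose by repeated duplication, and many of their proteins bind and silence transposable elements. Such genes are mostly transcribed at low levels, so that a few reads can decide what is seen of them.

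KLF5 itself had 4695, 4491 and 4235 reads in sh-NC libraries 1 to 3 and 1712, 1484 and 1432 reads in sh-KLF5 libraries 1 to 3. The log2 fold change of KLF5 was -1.53 with an SE of 0.12 (limma adjusted p = 2.47e-07). Library totals lay between 15852319 and 17543896 reads in both groups together. The sh-KLF5 library 1 stood apart, since the chi-square over genes, divided by its degrees of freedom, was 26.4 and 34.3 against the other libraries of its group, which gave 11.6 against each other. Among the 6 markers set for SKOV3, KRT8, KRT18 and MUC16 were lower in sh-KLF5 (log2 fold changes -1.17, -0.64 and -1.54), PAX8 and ERBB2 did not pass the test and KRT19, with 2 to 17 reads, did not either. All fold changes here were fitted to log2(normalized count + 1), so that those of genes with few reads come out too small.

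Of the 209 members, 22 (10.5%) had few reads in the control cells and almost none after silencing, against 2.34% of all genes. These 22 members were picked by a rule chosen after the values were seen. Their summed reads were highest in sh-NC library 1 (295, against 157 and 146 in sh-NC libraries 2 and 3). In the order of the members along the chromosome, 15 of them stood beside another one, in 4 separate runs. Whether low members of these clusters would stand so by position alone was not tested. The largest such run held ZNF888, ZNF816, ZNF160, ZNF415 and ZNF347 on chromosome 19 (GRCh38, 52904417 to 53159075), and another held ZNF583, ZNF667, ZNF471 and ZNF470. KLF factors bind GC-rich boxes, and the RefSeq promoter windows of 5 of these genes are shown because they hold such a box. The windows of ZNF583 and ZNF470 hold none, and ZNF888 and ZNF471 had no entry. Each window holds 250 bases before and 50 bases from the start of the gene, is written 5′ to 3′ on the strand of the gene (the minus strand for all 5) and belongs to the build GRCh38.p14. The windows are chr19:52962832-52963131 for ZNF816, chr19:53103373-53103672 for ZNF160, chr19:53132861-53133160 for ZNF415, chr19:53159004-53159303 for ZNF347 and chr19:56477296-56477595 for ZNF667. Capitals mark the GC box CCCCGCCC or its reverse complement GGGCGGGG.
ZNF816: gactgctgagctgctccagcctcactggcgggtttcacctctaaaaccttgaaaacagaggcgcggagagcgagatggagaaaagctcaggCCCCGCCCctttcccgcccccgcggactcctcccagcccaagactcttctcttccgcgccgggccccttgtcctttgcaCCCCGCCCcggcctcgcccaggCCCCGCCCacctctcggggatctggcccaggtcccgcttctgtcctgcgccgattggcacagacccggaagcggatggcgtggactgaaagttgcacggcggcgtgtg
ZNF160: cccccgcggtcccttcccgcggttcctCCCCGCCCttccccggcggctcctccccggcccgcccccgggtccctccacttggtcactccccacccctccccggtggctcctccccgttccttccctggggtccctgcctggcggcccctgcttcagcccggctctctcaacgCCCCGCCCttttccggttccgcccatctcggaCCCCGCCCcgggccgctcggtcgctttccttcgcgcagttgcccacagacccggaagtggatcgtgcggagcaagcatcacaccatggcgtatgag
ZNF415: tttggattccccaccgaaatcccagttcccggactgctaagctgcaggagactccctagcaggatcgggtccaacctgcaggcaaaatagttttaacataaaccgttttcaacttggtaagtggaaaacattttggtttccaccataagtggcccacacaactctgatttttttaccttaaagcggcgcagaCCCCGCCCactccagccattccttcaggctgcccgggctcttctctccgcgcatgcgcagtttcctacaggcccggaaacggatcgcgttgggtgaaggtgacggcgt
ZNF347: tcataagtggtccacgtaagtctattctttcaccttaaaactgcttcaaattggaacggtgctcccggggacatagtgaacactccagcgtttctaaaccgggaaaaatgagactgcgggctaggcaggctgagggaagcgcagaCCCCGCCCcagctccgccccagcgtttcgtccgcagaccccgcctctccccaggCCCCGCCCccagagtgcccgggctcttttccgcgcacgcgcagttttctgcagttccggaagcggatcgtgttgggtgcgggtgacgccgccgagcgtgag
ZNF667: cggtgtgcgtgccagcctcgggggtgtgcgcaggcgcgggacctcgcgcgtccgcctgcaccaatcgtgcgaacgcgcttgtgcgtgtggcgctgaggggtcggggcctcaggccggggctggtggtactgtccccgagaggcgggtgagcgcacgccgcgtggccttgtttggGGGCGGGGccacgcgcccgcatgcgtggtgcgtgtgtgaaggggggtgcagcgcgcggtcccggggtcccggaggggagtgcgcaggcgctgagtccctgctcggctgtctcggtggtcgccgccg

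ZNF816 and ZNF160 had 3 such boxes each, ZNF347 had 2 and ZNF415 and ZNF667 had 1. The box was searched on both strands of the RefSeq promoter windows, which were found for 184 of the 209 members, while 25 members had no entry. It was present in 57 of the 184 windows (31.0%), against 7991 of all 35116 promoter windows of the same length (22.8%). The background was not limited to protein-coding genes, to chromosome 19 or to 1 window per gene, while each member gave 1 window. The 2 sets are therefore unlike. Of the 19 windows found for the members near 0 reads, 8 had the box (42.1%). Among the members that passed the test as lower, 7 windows were found and 3 had it. The windows of ZNF569, ZNF561, ZNF443 and ZNF587B had none. The box was also present in ZNF414, which passed as higher, with 2 copies, and absent from ZNF579, which passed as higher too. The members also had more CpG dinucleotides per window, with a median of 21 against 14 over all windows. The match is a description of letters, and binding was not measured here.

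Of the 209 members, 170 had enough reads for the test and 39 did not. For 147 of the 170 tested members the log2 fold change lay within 0.5 of 0 (86.5%), against 78.9% of all tested genes. Their median log2 fold change was -0.09, against 0.00 over the 15803 tested genes. Below 0 were 112 of the 170 members (65.9%) against 50.3% of all tested genes. The 227 tested ZNF genes of other chromosomes had a median of -0.09 as well, with 61.2% below 0. The other 740 tested protein-coding genes of chromosome 19 had a median of -0.04, with 55.9% below 0. By library, the median deviation of the tested members from their sh-NC mean was 0.02, 0.03 and -0.05 in sh-NC libraries 1 to 3 and -0.10, -0.09 and -0.08 in sh-KLF5 libraries 1 to 3. The groups did not overlap in this median.

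More members passed the test as lower than as higher, and neither share exceeded the background. In sh-KLF5, 9 members were lower (5.29% of the 170) and 2 were higher (1.18%) at an adjusted p-value under 0.05 from limma, while 6.85% of all tested genes passed as lower and 6.04% as higher. With a log2 fold change below -1 as well, 4 members remained (2.35%, background 3.37%), and none had one above 1 (background 1.9%), nor did any by edgeR, by DESeq2 or at an unadjusted p-value under 0.05. The libraries of the groups did not overlap for 37 members that were lower (21.8%, background 15.9%) and for 9 that were higher (5.29%, background 15.4%). At an unadjusted p-value under 0.05, 26 members were lower (15.3%, background 13.4%) and 6 higher (3.53%, background 12.8%).

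**Figure D1:**
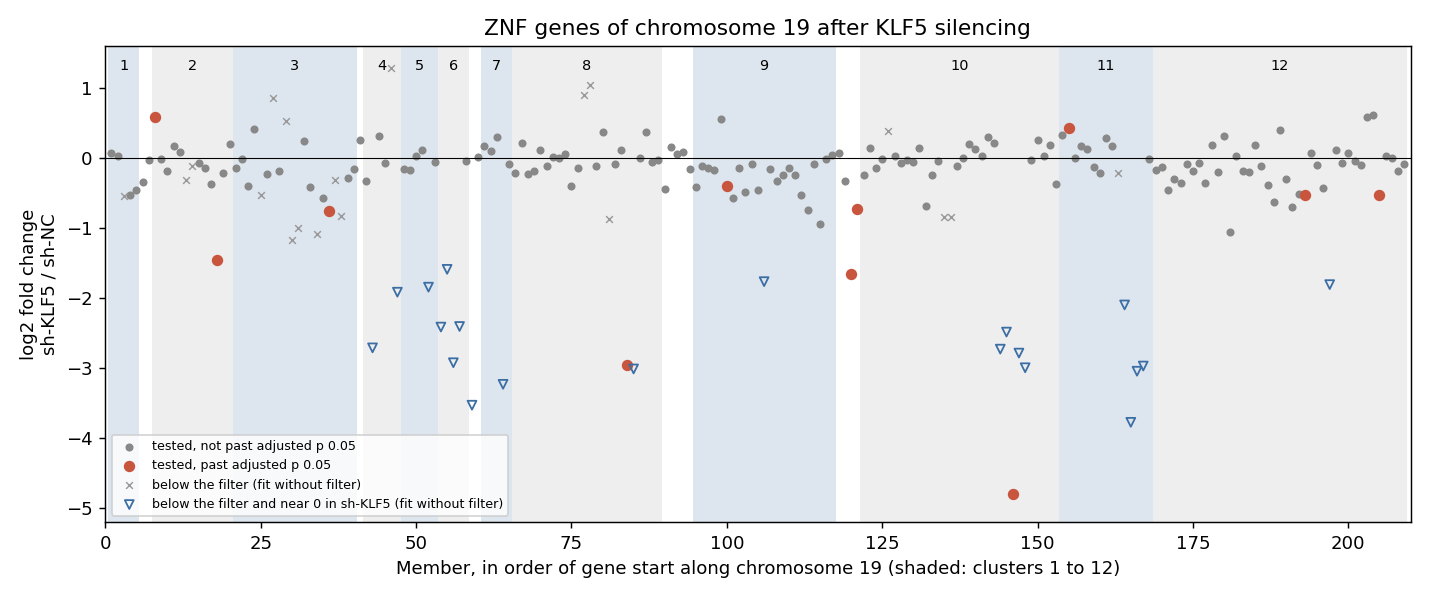
Log2 fold change of each member (y axis, sh-KLF5 over sh-NC, on the log2(normalized count + 1) scale) against its order of gene start along chromosome 19 (x axis), with the 12 clusters shaded, red dots for tested members past an adjusted p of 0.05, grey dots for the other tested members, and crosses and open triangles for members below the filter, taken from the fit without it. Most dots lie close to 0, and the open triangles, the members near 0 reads in sh-KLF5, stand beside each other in several places, with ZNF160 (-4.80) inside one of them.

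The 4 members past the fold threshold were ZNF160, ZNF569, ZNF114 and ZNF561. ZNF160 (ENSG00000170949, 53066606 to 53103436, minus strand) had 46, 28 and 32 reads in sh-NC libraries 1 to 3 and 1, 0 and 0 reads in sh-KLF5 libraries 1 to 3. All control libraries therefore showed the transcript and the silenced libraries had at most a single read. Its log2 fold change was -4.80 with an SE of 0.58 (limma adjusted p = 3.22e-05). ZNF569 (ENSG00000196437, 37411155 to 37469275, minus strand) had 16, 13 and 17 reads against 2, 2 and 0, and a log2 fold change of -2.96 with an SE of 0.65 (limma adjusted p = 0.00543). ZNF160 and ZNF569 both encode KRAB proteins, with 20 and 18 fingers. Both passed the filter only through their sh-NC reads, and the size of their fitted change depends on the pseudocount. The adjusted p of ZNF569 was 0.0536 without sh-NC library 3.

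ZNF114 and ZNF561 were better measured. ZNF114 (ENSG00000178150, 48270102 to 48287608, plus strand), a KRAB gene with 3 fingers that stands outside the clusters, had normalized counts of 186, 174 and 237 in sh-NC and 51.0, 59.2 and 79.2 in sh-KLF5. The highest silenced library was below the lowest control library by more than 2 times. Its means were 199 ± 33.0 and 63.1 ± 14.5 (SD, n = 3 each), so that 31.7% of the control level remained, and its log2 fold change was -1.65 with an SE of 0.21 (limma adjusted p = 5.9e-05). ZNF561 (ENSG00000171469, 9604680 to 9621399, minus strand), a KRAB gene with 8 fingers, had 84.7, 70.0 and 82.8 in sh-NC and 20.4, 34.9 and 31.1 in sh-KLF5. Its log2 fold change was -1.46 with an SE of 0.27 (limma adjusted p = 0.00152), with 36.4% of the control level left. Its neighbour ZNF562, the member with the highest mean normalized count in the same cluster, had a log2 fold change of -0.22 and did not pass (adjusted p = 0.256).

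The other passing members had smaller changes. ZNF473, whose protein takes part in the 3′ end processing of histone mRNA with the U7 particle, had normalized counts of 767, 771 and 758 in sh-NC and 395, 459 and 539 in sh-KLF5. The control libraries lay close together and the silenced ones were spread below them, and the log2 fold change was -0.73 with an SE of 0.13 (limma adjusted p = 0.00127). The gene body of ZNF473 overlaps that of VRK3 on the opposite strand, and whether strand was used in counting is not given in the sources used here. ZNF443 had a log2 fold change of -0.76, ZNF584 and ZNF587B of -0.53 each and ZNF45 of -0.40 (adjusted p from 0.0282 to 0.0474). ZNF443 shares 26.6% and ZNF587B 19.3% of the 75-base stretches of its transcripts with another gene, so that their reads may be split among copies. The gene bodies of ZNF584 and ZNF587B also overlap other tested genes. The 2 members that rose were ZNF414, from 186 ± 23.0 to 283 ± 48.7 (log2 fold change 0.59, limma adjusted p = 0.0291), and ZNF579, from 476 ± 29.5 to 640 ± 48.0 (SD, n = 3 each, log2 fold change 0.42, adjusted p = 0.0335). Neither has a KRAB match.

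**Figure D2:**
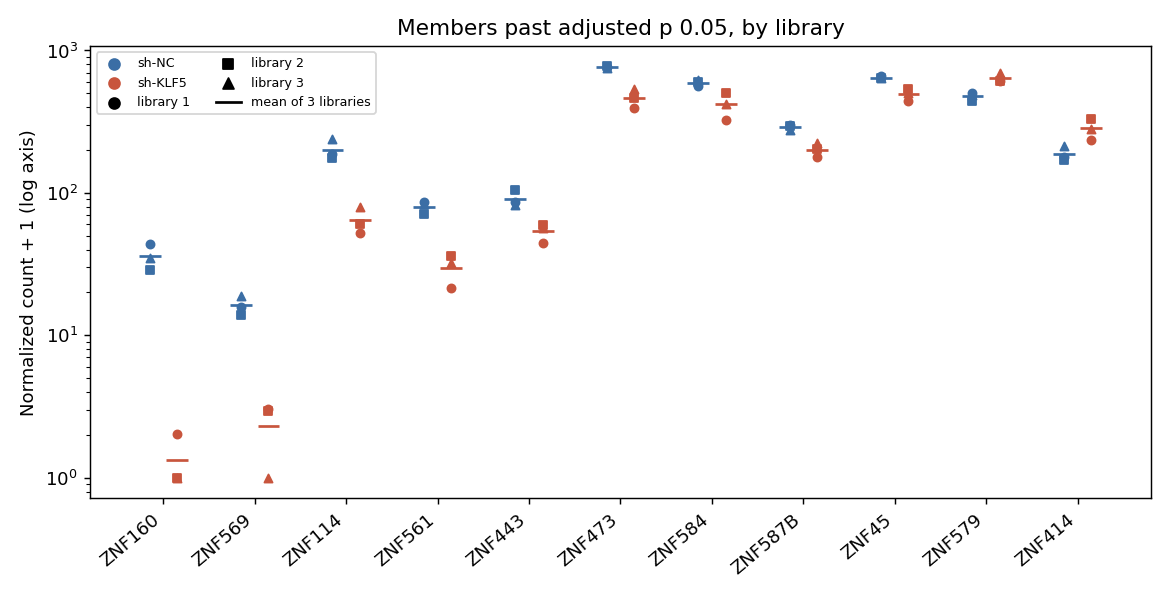
Normalized count + 1 in each library (y axis, log scale) for the 11 members past an adjusted p of 0.05 (x axis), with blue for sh-NC, red for sh-KLF5, a marker shape for each library number and a bar at the mean of 3 libraries. ZNF160 and ZNF569 fall to within a few reads of 0, ZNF114 and ZNF561 keep 31.7% and 36.4% of the control level, and the other members differ by less.

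ZNF160, ZNF114, ZNF561 and ZNF473 kept an adjusted p under 0.05 when any 1 library was left out, although ZNF160 entered the test only through its sh-NC reads. ZNF569 and the remaining 6 members did not. ZNF584, ZNF587B, ZNF579, ZNF45 and ZNF443 lost it without any 1 of the sh-NC libraries, and ZNF414 without sh-NC library 1 or 2. ZNF443 and ZNF45 also lost it without sh-KLF5 library 1, and ZNF443, ZNF587B, ZNF414 and ZNF579 without sh-KLF5 library 2. The same held for ZNF45, ZNF414 and ZNF579 without sh-KLF5 library 3. Their adjusted p then reached 0.191 for ZNF443, 0.143 for ZNF414 and 0.180 for ZNF579 without sh-NC library 2, 0.120 for ZNF587B and 0.175 for ZNF45 without sh-NC library 1 and 0.129 for ZNF584 without sh-NC library 3. Without sh-KLF5 library 1, 13 of 173 tested members were lower (7.51%, background 9.25%) and 6 were higher (3.47%, background 7.77%).

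Among the 39 members with too few reads for the test, the direction was uneven. In 33 of them the sh-NC libraries held more reads than the sh-KLF5 libraries and in 6 they held fewer. Of all 13382 genes below the filter, 6795 had more reads in sh-NC and 5385 had more in sh-KLF5. Of the 21 ZNF genes of other chromosomes below it, 15 had more in sh-NC and 4 more in sh-KLF5. The summed reads of the 39 members were 287, 181 and 131 in sh-NC libraries 1 to 3 and 48, 49 and 53 in sh-KLF5 libraries 1 to 3. There were 14 members (35.9% of the 39) with reads in every sh-NC library and none in any sh-KLF5 library, against 2.31% of the 13382 genes below the filter and 4.38% of the 3268 protein-coding genes among them. No member showed the reverse, against 0.673% and 0.949%. These 14 were ZNF14, ZNF682, ZNF492, ZNF724, ZNF91, ZNF30, ZNF570, ZNF888, ZNF816, ZNF415, ZNF583, ZNF667, ZNF471 and ZNF470. Their highest count was 16 reads, in ZNF667. With 3 reads over the whole sh-KLF5 group as the floor that 0 reads leave, they were at least 3.21-fold (ZNF682) to at least 13.0-fold (ZNF667) lower. These limits cover counting error only. Without sh-NC library 1, in which 8 of the 14 had their highest normalized count, the bounds ran from 2.01 to 14.8.

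A rule chosen after the values were seen brought these together with members at a few reads. It asked for at most 3 reads in each sh-KLF5 library, at least 1 read in each sh-NC library, at least 10 reads in sh-NC in all and at least 3 times the sh-KLF5 reads. It found 22 of the 209 members (10.5%), against 2.34% of all genes of the table, 2.02% of the ZNF genes of other chromosomes (5 of 248) and 3.12% of the other protein-coding genes of chromosome 19 (31 of 994). In the reverse direction it found 0 members, against 0.805% of all genes. Genes with many reads in both groups cannot meet this rule, so it was also applied by level. Among genes with 10 to 110 reads in all over the 6 libraries, it took 22 of 34 members (64.7%) and 633 of 7824 genes (8.09%). It took 351 of 2435 protein-coding genes (14.4%) and 27 of 188 other protein-coding genes of chromosome 19 (14.4%). Of the ZNF genes of other chromosomes it took 4 of 14. The upper limit of 110 lies close to the largest sh-NC total of the 22 members, 106 reads. These 22 members had a median of 0.74 normalized counts per kb of gene length over the 6 libraries, against 44.4 for the other 168 tested members. Their summed reads were 295, 157 and 146 in sh-NC libraries 1 to 3, with sh-NC library 1 the highest, and 5, 7 and 7 in the sh-KLF5 libraries. Leaving out any 1 library gave 18 to 23 members, with the 18 without sh-NC library 1. Of the 22 members, 20 were below the filter. In the fit without a filter 16 of the 22 passed, which adds no support, since the rule chose them by the same reads. Of all 209 members 22 passed as lower and 1 as higher in that fit, against 4.94% and 3.87% of all genes. In bulk RNA, fewer cells that transcribe a gene and less RNA per cell cannot be told apart.

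Of the 22 members, 15 stood beside another one in the order along the chromosome, in 4 runs. The run of 5 spanned 254.658 kb and held ZNF888, ZNF816, ZNF160, ZNF415 and ZNF347, with 104, 49 and 53 reads in sh-NC libraries 1 to 3 and 1, 0 and 3 reads in sh-KLF5 libraries 1 to 3. ZNF347 had 28, 7 and 8 against 0, 0 and 3 reads, ZNF415 had 15, 2 and 6 against none, ZNF888 had 11, 4 and 4 against none and ZNF816 had 4, 8 and 3 against none. The promoter windows shown above for ZNF816, ZNF160, ZNF415 and ZNF347 belong to this run. The members on both sides of it were well expressed and did not pass the test. ZNF468, the next one before it, had 490, 452 and 432 reads in sh-NC and 539, 513 and 529 in sh-KLF5 (log2 fold change 0.21, limma adjusted p = 0.295), and ZNF845, the next one after it, had 688, 664 and 544 against 623, 576 and 644 (log2 fold change -0.03, adjusted p = 0.927).

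A run of 4 lay between 56397966 and 56588911. ZNF667 had 10, 16 and 13 reads in sh-NC, ZNF471 had 7, 11 and 5, ZNF470 had 8, 10 and 4 and ZNF583 had 3, 4 and 3. None of these 4 genes had a read in any sh-KLF5 library. Between ZNF471 and ZNF470 lies ZFP28, a zinc finger gene whose symbol keeps it outside the members, with 11, 19 and 15 reads in sh-NC and none in sh-KLF5 (log2 fold change -3.96, limma adjusted p = 0.00104). It passed the filter only through its sh-NC reads, and 6.85% of all tested genes passed as lower. Over the 4 members the sh-NC libraries held 28, 41 and 25 reads, with the most in library 2. ZNF667, ZNF471 and ZNF470 share none of the 75-base stretches of their transcripts with another gene.

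The other run of 4 held ZNF492, ZNF730, ZNF724 and ZNF91 (22634324 to 23395560), with 44, 15 and 9 reads in sh-NC and 0, 1 and 0 reads in sh-KLF5. ZNF91, a silencer of SVA and LINE-1 elements and with 31 fingers the longest array among the members, had 12, 5 and 1 reads in sh-NC and none in sh-KLF5. Most of the sh-NC reads of this run came from library 1. ZNF724 and ZNF492 share 42.8% and 24.5% of the 75-base stretches of their transcripts with another gene, so that their reads may be split among copies. The next member, ZNF675, known as an inhibitor of TRAF6 signalling, had 514, 536 and 370 reads in sh-NC and 471, 467 and 422 in sh-KLF5 and did not pass (log2 fold change -0.04, limma adjusted p = 0.906). The pair ZNF569 and ZNF570 made up the last run, with 30, 18 and 22 against 2, 2 and 0 reads. The gene bodies of ZNF569 and ZNF570 overlap on opposite strands. Of the 7 members standing alone, ZNF254 had the most reads, with 32, 7 and 11 in sh-NC and 0, 0 and 1 in sh-KLF5.

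**Figure D3:**
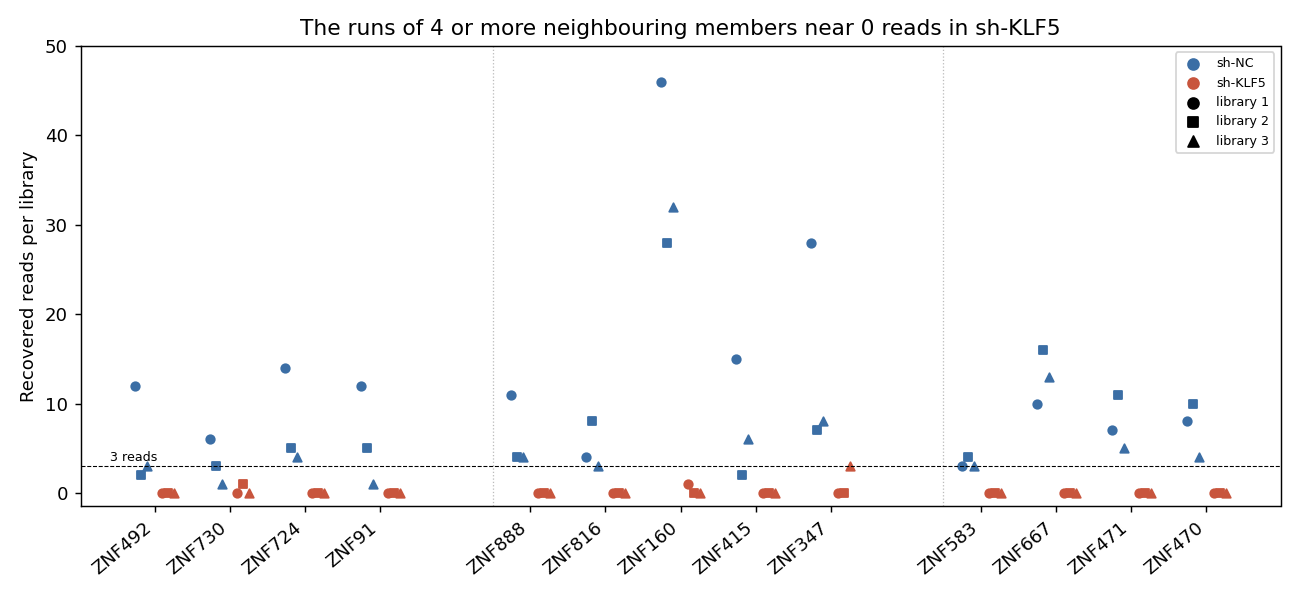
Recovered reads in each library (y axis) for the 13 members of the 3 runs of 4 or more neighbours (x axis, in order along the chromosome, runs separated by dotted lines), with blue for sh-NC, red for sh-KLF5, a marker shape for each library number and a dashed line at 3 reads. The red points lie at 0 apart from a single read for ZNF730 and for ZNF160 and 3 reads for ZNF347, and sh-NC library 1 is the highest control library for most members of the first 2 runs but not of the last.

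Genes that mark other cells were read beside this result. Of the 5 fibroblast markers, DCN and COL3A1 were lower in sh-KLF5 (log2 fold changes -1.82 and -1.78), while LUM (-0.45) and COL1A1 (0.30) did not pass and PDGFRB, with 2 to 20 reads, was below the filter. The summed normalized counts of the 5 lay between 1042 and 1483 in sh-NC and between 397 and 753 in sh-KLF5. Of the leukocyte markers, PTPRC had at most 1 read in any library, while CD14 had 151 to 391 reads and did not pass. Of the endothelial ones, CDH5 had at most 3 reads, VWF 3 to 10 and PECAM1 31 to 75. The part of the fibroblast markers in the near-0 members was not tested.

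Most members encode KRAB proteins. By the longest coding sequence of GENCODE release 29, 175 of the 209 members (83.7%) had a match to the KRAB A box, with at most 3 of its fixed letters different, and the members had a median of 12 fingers, counted by the spacing of their cysteines and histidines. Of the 22 members near 0 reads after silencing, 21 matched KRAB, with no match in ZNF492, and their median was 14.5 fingers. Among the tested members, the 138 with a KRAB match had a median log2 fold change of -0.09 with 70.3% below 0. Of these 138, 8 passed as lower. Over all tested genes, 50.3% were below 0 and 6.85% passed as lower. The 32 without a match had a median of 0.01 with 46.9% below 0. They include ZNF473, which passed as lower, and both members that rose. A protein without a match may still hold a KRAB domain that differs more from the pattern, so the 2 sets are split by the match only. The difference between them was not tested.

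Along the chromosome, 195 of the members fell into 12 clusters of at least 5 members with starts at most 500 kb apart, and 14 were scattered. The cluster medians of the log2 fold change lay between -0.22 (ZNF554 to ZNF77, 4 tested members) and 0.15 (ZNF628 to ZNF71, 10 tested members). Of the 12 medians 10 were below 0, although those of clusters 4, 5, 6, 8 and 10 turned above 0 when 1 library or another was left out, and that of cluster 11 fell below 0 without sh-KLF5 library 2. The medians of the sh-KLF5 libraries lay below those of all sh-NC libraries in clusters 2, 9 and 12. In the scattered members the median was -0.02.

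The clearest shift of a whole cluster was in cluster 9, from ZNF575 to ZNF180 (43525497 to 44500524), where 20 of 22 tested members had a log2 fold change below 0 and the median was -0.20. The share below 0 was 65.9% over all tested members and 50.3% over all tested genes. This cluster was singled out among the 12 after the values were seen. The deviation of the cluster median from the sh-NC mean was 0.02, 0.05 and -0.04 in sh-NC libraries 1 to 3 and -0.28, -0.19 and -0.21 in sh-KLF5 libraries 1 to 3, so that the groups were well apart. Single members mostly did not pass, and ZNF45, which also had the highest mean normalized count in the cluster, was the one that passed, with normalized counts of 657, 637 and 640 in sh-NC and 437, 537 and 499 in sh-KLF5 (log2 fold change -0.40, with SE 0.12 and limma adjusted p = 0.0474). ZNF404 and ZNF180 were the 2 members above 0, with log2 fold changes of 0.55 and 0.04. The 8 tested genes of other names within the span had a median of -0.12, and 2 of them passed the test as lower. The share of all tested genes that passed as lower was 6.85%. With each library left out, the cluster median stayed between -0.27 and -0.15.

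In cluster 12, the most gene-rich one, from ZNF264 to ZNF446 near the end of the long arm (57191500 to 58481230), 29 of 40 tested members were below 0 with a median of -0.12. Over all tested members, 65.9% were below 0. In this cluster sh-KLF5 library 1 lay lowest, at -0.24 against -0.12 and -0.08 in the other 2. ZNF587B and ZNF584 passed as lower there. The 6 tested genes of other names within its span had a median of 0.09. Cluster 2, from ZNF414 to ZNF846, held both a passing rise (ZNF414) and a passing fall (ZNF561), and its median was -0.07. The cluster with the run of 5 near-0 genes, from ZNF175 to ZNF331, had a median of -0.02 over 25 tested members. The cluster with ZNF583 to ZNF470 had a median of 0.15 over 10 tested members, and of -0.0087 in the fit without a filter, which takes in the 4 genes of the run.

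**Figure D4:**
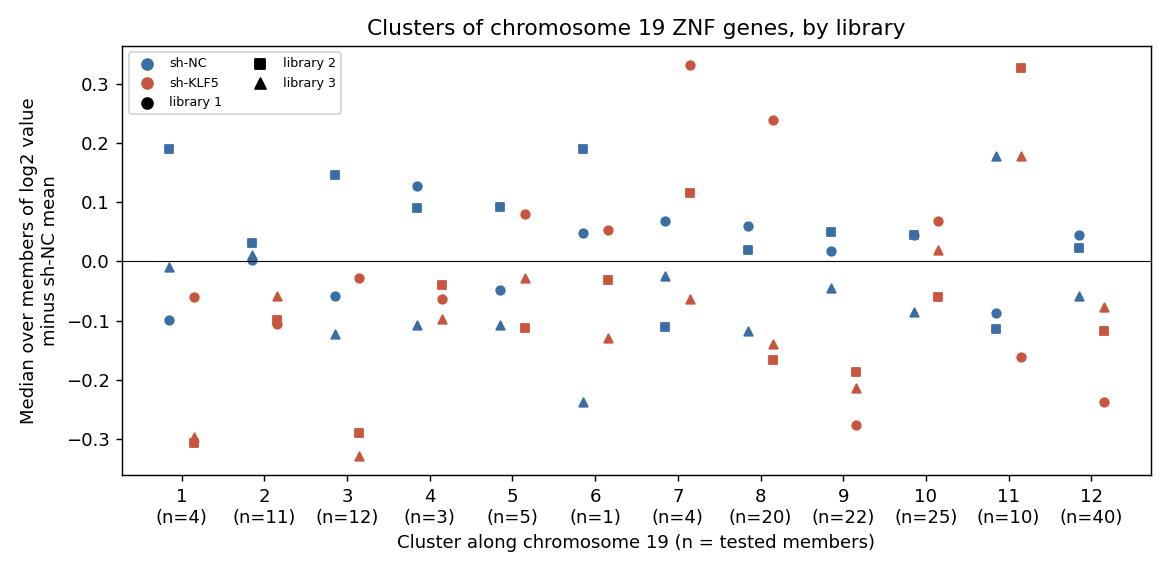
Median over the tested members of each cluster of the log2 value minus its mean in sh-NC (y axis), for each library, against the cluster number along chromosome 19 (x axis, with the number of tested members), with blue for sh-NC, red for sh-KLF5 and a marker shape for each library number. In clusters 2, 9 and 12 the red points lie below all blue points, and in the other clusters the colours overlap.

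ZNF146, a protein made almost only of fingers, was the member with the highest level per length, at 612 normalized counts per kb, and had 2653, 2394 and 2081 reads in sh-NC and 2702, 2545 and 2946 in sh-KLF5 (log2 fold change 0.21, limma adjusted p = 0.257). ZNF507 had a log2 fold change of 0.02 and ZNF264 of -0.17, and neither passed (adjusted p = 0.944 and 0.393).

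The partners of KRAB proteins were measured with high counts and mostly did not pass. Of 28 genes of the TRIM28 and SETDB1 pathway, all tested, 1 passed as lower, 1 passed as higher and the median log2 fold change was -0.10. Over all tested genes, 6.85% passed as lower and 6.04% as higher. TRIM28, the co-repressor, which itself lies on chromosome 19 beyond the last cluster, had normalized counts of 12318, 12386 and 14136 in sh-NC and 13162, 13722 and 14862 in sh-KLF5 (log2 fold change 0.11, limma adjusted p = 0.609). SETDB1, the methyltransferase, had a log2 fold change of -0.15 (adjusted p = 0.548). CBX1, the heterochromatin protein HP1 beta, fell by 0.71 on the log2 scale (adjusted p = 5.3e-04), from 1440 ± 66.3 to 881 ± 83.8 (SD, n = 3 each). KIAA1551, a partner of SETDB1 in silencing of retroelements, rose from 1007 ± 177 to 1483 ± 254 (SD, n = 3 each, log2 fold change 0.56, limma adjusted p = 0.0202), and its adjusted p was 0.134 without sh-NC library 3.

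Other zinc finger families of the chromosome, those named ZFP, ZSCAN, ZBTB and ZIK, contributed 15 genes, of which 9 were tested. ZFP28 and ZFP82 were the 2 that passed, both lower, and both passed the filter only through their sh-NC reads. The share of all tested genes that passed as lower was 6.85%. ZFP82 had 20, 23 and 16 reads in sh-NC and 1, 0 and 0 in sh-KLF5 (log2 fold change -4.00, limma adjusted p = 4.6e-04). ZSCAN18, below the filter, had 6, 2 and 7 reads against none. These 3 also met the rule for genes near 0 reads, out of 5 genes of these families with 10 to 110 reads in all.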

How the data were processed

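RNA-seq libraries of SKOV3 cells, 3 sh-KLF5 and 3 sh-NC, were compared, with groups and replicate numbers taken from the sample titles. The authors deposited 1 table with a normalized signal per gene and library, which is the read count divided by 1 factor per library. Per the submitters' processing notes, HISAT2 2.0.5, featureCounts 1.5.0-p3, DESeq2 1.20.0 and hg38 were used, and the strand setting is not given in the sources used here. The deposited table also holds the authors' log2 fold changes and p-values, which were not used. The smallest value above 0 of a library stood for 1 read, and in units of it 100% of values were whole within 1e-06. The totals were 15852319 to 17543896 reads, at which 3 reads equal 0.171 to 0.189 CPM.

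The test was limma 3.58.1 (trend and robust settings, R 4.3.3) on log2(normalized count + 1) over 15803 genes kept by filterByExpr of edgeR 4.0.16 (minimum count 10), with Benjamini-Hochberg adjustment over all of them. The alternatives were edgeR and DESeq2 1.42.0 on the recovered reads, TMM factors, library size, pseudocounts of 0.5 and 5, no filter, 10 reads in every library, unadjusted p-values, other cluster gaps, a replicate block, leaving out members that overlap another tested gene, and leaving out each library. The test was tried on simulated data with known changes. Pairs of libraries of a group differed by more than sampling noise, so none was counted as a repeat of another.

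The members, gene lists, tests and alternatives were chosen with earlier results of these data known. Named are members past the fold threshold, the passing members with the largest rises and falls, the member of highest level and the one of smallest p in each cluster, the 3 members of highest level, TRIM28, SETDB1 and passing KRAB partners, and KLF5. Members near 0 reads, their neighbours and ZFP genes were added after their values were seen. Coordinates follow GENCODE release 29 on GRCh38, and promoter windows come from RefSeq (GRCh38.p14). One gene of the marker lists is not reported here. Python 3.11.15 and matplotlib 3.10.9 made the figures.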

Additional observations from a re-analysis of the deposited data

How the results depend on the processing

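With edgeR and DESeq2 on the recovered reads, 9 members were lower and 2 higher each, as with limma. Without a filter on low counts, 22 members were lower, 18 of them past the fold threshold, and 1 was higher, against 4.94% lower and 3.87% higher among all 29185 genes, while the member median became -0.14 and those of clusters 1, 2, 4, 6 and 11 became -0.46, -0.11, -0.20, -2.41 and -0.0087, because low members then entered. With at least 10 reads in every library, 2 members were past the fold threshold, since ZNF160 and ZNF569 were removed. By unadjusted p, 26 members were lower and 6 higher, and 2110 and 2024 of all genes. Leaving out 1 library in turn gave 4 to 13 lower and 0 to 6 higher members, 3 to 6 past the fold threshold and 699 to 1514 lower and 518 to 1272 higher genes. It gave cluster medians of -0.080 to 0.18 in cluster 4, -0.13 to 0.072 in cluster 5 and -0.27 to -0.15 in cluster 9, and the cause was not tested. The log2 fold changes of ZNF507 (-0.041 to 0.081), ZNF555 (-0.073 to 0.090) and ZNF675 (-0.155 to 0.059) changed sign near 0. Samples with the same number share only the number (correlations of their deviations 0.059, 0.033 and 0.050), and with a replicate block 12 members were lower and 2 higher (1383 and 1292 of all genes). Without members that overlap another tested gene, 6 were lower. Leaving out a library aside, the named genes kept direction and call in 264 of 268 fits. The other 4 were ZNF45 (adjusted p = 0.0583 with library size, 0.0774 without a filter and 0.0511 with 10 reads in every library) and ZNF579 (0.0531 without a filter), all from limma.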
